A study of Mus musculus with 18 samples.

Results

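Osmr, Lifr, Il6st, Cntfr, Clcf1, Jak1, Jak2, Stat3 and Socs3 code for receptors, a ligand, kinases, a transcription factor and an inhibitor of the pathway that runs from gp130 cytokines through JAK kinases to STAT3. These genes were chosen by name as the main gliogenic signalling pathway, and they are 9 of the 54838 genes in the table of raw counts. All 9 were among the 20067 genes with enough reads to be tested, although Clcf1 had no read in undifferentiated cells and passed the filter on low counts through the differentiated conditions alone.

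The counts come from RNA of 18 mouse cell cultures, 3 for each of 6 conditions. Wild-type C57BL/6J neural stem cells (NSCs) taken from the ventricular zone of embryos at E14 were grown as neurospheres (NSPs), which float and divide in medium with EGF at 20 ng/ml. The other 5 conditions were cells plated on a coated surface in medium with 10% FBS, a serum that drives NSPs to become astrocytes, for 24 h or 72 h without TNF, for 24 h or 72 h with TNF at 50 ng/ml, or for 1 week without TNF. The untreated cells of the same time point were the controls for TNF, an inflammatory cytokine. The cells carried no engineered allele. Serum, loss of EGF, attachment and time in culture changed together between NSPs and every differentiated condition, so their parts cannot be told apart.

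The cytokines of the gp130 family (LIF, CNTF, oncostatin M, cardiotrophin and CLCF1 among them) share the signalling receptor gp130, the product of Il6st. LIF and CLCF1 signal through gp130 paired with the LIF receptor, CLCF1 with the help of CNTFR, and mouse oncostatin M acts mainly through gp130 paired with OSMR. The paired chains bring together JAK kinases, which phosphorylate STAT3. STAT3 then enters the nucleus and raises its targets, one of which, Socs3, codes for a protein that blocks gp130 and the kinases attached to it. In the embryonic brain this pathway switches on astrocyte genes such as Gfap in NSCs. Activity of STAT3 depends on its phosphorylation, which RNA counts do not measure.

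STAT3 binds a palindrome of TTC and GAA with a spacer of 3 bases. The windows from 250 bases before to 50 bases after the start sites in RefSeq (GRCm38.p6) were searched for it. It reads the same on both strands. A window was held for 8 of the 9 genes, all but Clcf1, and 1 of their 14 windows had a match. That match was in Socs3, whose first base stood at -154 from the start site. Of all 32851 windows, 2726 (8.3%) had at least one. The 250 bases before the start sites of Osmr, Il6st and Socs3 are shown because the levels of these 3 genes moved together most closely over the libraries. They lie on chr15:6874314-6874563 (minus strand), chr13:112463820-112464069 (plus strand) and chr11:117969367-117969616 (minus strand), and are written 5′ to 3′ along the gene with the palindrome in capitals.
Osmr: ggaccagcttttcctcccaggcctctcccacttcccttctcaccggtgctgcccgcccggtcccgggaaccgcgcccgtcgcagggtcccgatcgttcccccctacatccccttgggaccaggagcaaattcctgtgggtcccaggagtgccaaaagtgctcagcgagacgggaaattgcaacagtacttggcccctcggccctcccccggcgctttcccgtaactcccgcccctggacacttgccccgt
Il6st: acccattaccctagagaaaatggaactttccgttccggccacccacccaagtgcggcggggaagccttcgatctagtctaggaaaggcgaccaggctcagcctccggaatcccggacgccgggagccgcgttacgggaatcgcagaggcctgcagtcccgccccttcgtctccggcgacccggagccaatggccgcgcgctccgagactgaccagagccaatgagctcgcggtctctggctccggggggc
Socs3: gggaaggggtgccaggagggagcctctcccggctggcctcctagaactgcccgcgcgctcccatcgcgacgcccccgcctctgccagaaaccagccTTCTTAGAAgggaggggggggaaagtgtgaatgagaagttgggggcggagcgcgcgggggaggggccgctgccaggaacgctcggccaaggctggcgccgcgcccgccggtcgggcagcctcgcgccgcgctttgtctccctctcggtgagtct
The windows of Osmr and Il6st hold no exact copy of the palindrome, which says nothing of STAT3 binding in them or elsewhere at these genes.

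Total counts ranged from 12509693 to 22549627 per library with a median of 16794798. Levels are CPM, read counts scaled to the size of each library with TMM factors, and comparisons between genes use RPKM, which also divides by the length of a gene's exons. A gene was called changed at an adjusted p under 0.05 in edgeR's quasi-likelihood test with Benjamini-Hochberg adjustment over all 20067 genes, and every adjusted p below comes from that test unless DESeq2 is named. Of 9 astrocyte markers, 8 were at 1 CPM or more in every condition, NSPs included, with a summed level from 5129 to 5364 CPM in NSPs, from 5696 to 8145 CPM at 72 h and from 2683 to 3248 CPM at 1 week. Mean Gfap was 27.1 CPM for NSPs, 2432 CPM after 72 h and 63.4 CPM after 1 week, so the cells labelled astrocytes at 1 week had little of this marker. Summed markers reached at most 60.2 CPM for 5 genes of neurons, 182 CPM for 6 of the oligodendrocyte lineage, 3.95 CPM for 8 of microglia and macrophages, 6.75 CPM for 4 of endothelium and 1.1 CPM for 5 of fibroblasts. C1qa of microglia and Lum of fibroblasts were at 0 counts in every library. The microglial sum ranged from 2.96 to 3.75 CPM at 24 h and from 2.65 to 3.95 CPM with TNF, and from 1.76 to 3.1 CPM at 72 h and from 2.65 to 2.79 CPM with TNF. The part of each such cell type in the results was not tested. In cultures sequenced as a whole, fewer cells of a type and less RNA per cell cannot be told apart. Replicate 1 of 24 h with TNF stood apart from the other 2 in Osmr, Lifr and Il6st, and results that rest on it are given with and without it.

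Il6st was the most abundant of the 9 genes per length of exons in every differentiated condition, and it rose early in differentiation. Il6st (chromosome 13, 112464070 to 112510086, plus strand, GRCm38) codes for gp130 itself. It stood at 160, 168 and 158 CPM in the 3 NSP libraries and at 1207, 1186 and 1199 CPM at 24 h, so no library overlapped between the conditions. The change was 7.4-fold (log2 fold change 2.89 ± 0.15 SE, adjusted p = 1.05e-10). At 72 h the libraries stood at 1743, 2148 and 1952 CPM, all above those at 24 h, a further rise of 0.70 ± 0.14 on the log2 scale (adjusted p = 0.0011). After 1 week they stood at 1366, 1328 and 1290 CPM, which was 8.21-fold above NSPs (log2 fold change 3.04 ± 0.15, adjusted p = 1.18e-11) and 1.47-fold below 72 h (log2 fold change -0.55 ± 0.14, adjusted p = 0.021). The fall from 72 h to 1 week was called in 1 of the 6 fits that left out one library, and its adjusted p ranged from 0.0171 without 72 h replicate 1 to 0.124 without 72 h replicate 2. It was also lost without 72 h replicate 3 and without each of the 3 libraries of 1 week.

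Osmr followed Il6st upward and then returned most of the way. Osmr (chromosome 15, 6813577 to 6874969, minus strand) codes for the chain that makes gp130 a receptor for oncostatin M. It was near the lower limit of detection in NSPs, at 1.27, 1.54 and 0.853 CPM, and stood at 10.1, 9.11 and 10.3 CPM after 24 h and 43.7, 46.6 and 40.9 CPM after 72 h. Each step separated all libraries. The level rose 7.97-fold from NSPs to 24 h (log2 fold change 3.00 ± 0.37, adjusted p = 2.95e-06) and 4.47-fold from 24 h to 72 h (log2 fold change 2.16 ± 0.30, adjusted p = 3.6e-05). At 1 week it stood at 5.39, 5.86 and 7.82 CPM, below every 24 h library. It had fallen 6.93-fold from 72 h (log2 fold change -2.79 ± 0.31, adjusted p = 2.05e-05) and was still 5.14-fold above NSPs (log2 fold change 2.36 ± 0.38, adjusted p = 3.02e-05). All 4 of these calls held in each of the 6 fits that left out one library.

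Lifr took the opposite course. Lifr (chromosome 15, 7090614 to 7197489, plus strand) codes for the LIF receptor chain and was the most abundant of the 9 genes per length in NSPs. Its NSP libraries stood at 519, 389 and 401 CPM. After 24 h they stood at 365, 344 and 368 CPM, after 72 h at 168, 171 and 158 CPM and after 1 week at 222, 223 and 239 CPM. The first step did not pass the test (log2 fold change -0.28 ± 0.16, adjusted p = 0.151), although the highest 24 h library lay below the lowest NSP library. Lifr then fell 2.16-fold from 24 h to 72 h (log2 fold change -1.11 ± 0.16, adjusted p = 6.68e-05). The difference from 72 h to 1 week did not pass (log2 fold change 0.46 ± 0.16, adjusted p = 0.108), except with no filter on low counts (adjusted p = 0.0286) and with only the compared groups in the fit (adjusted p = 0.0147), and 1 week was 1.92-fold below NSPs (log2 fold change -0.94 ± 0.16, adjusted p = 7.81e-05). Summed markers of 3 other lists also differed between these conditions. The 5 genes of neural stem cells ranged from 4565 to 6194 CPM in NSPs, from 2227 to 2600 CPM at 24 h, from 1392 to 1841 CPM at 72 h and from 1396 to 1813 CPM at 1 week. The 6 of the oligodendrocyte lineage ranged from 81.2 to 182 CPM, 61.1 to 63.1 CPM, 14.3 to 18.5 CPM and 21.8 to 26.9 CPM in the same order. The 5 of neurons ranged from 17.8 to 35.7 CPM, 38.8 to 47 CPM, 10.4 to 11.5 CPM and 6.58 to 7.55 CPM. Their part in the change of Lifr was not tested.

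Because Osmr and Il6st rose while Lifr fell, the proportions of the receptor chains changed. Lifr averaged 40.5 ± 6.69 RPKM (SD, n = 3) in NSPs and Il6st 14.6 ± 0.452 RPKM, a ratio of Lifr to Il6st of 2.78. The ratio was 0.309 after 24 h, 0.0883 after 72 h and 0.177 after 1 week. Osmr stood at 0.00253 of Lifr per length in NSPs, 0.0243 after 24 h, 0.235 after 72 h and 0.0247 after 1 week. These ratios depend on the length given to each gene. On the longest transcript in place of all annotated exons the ratio of Osmr to Lifr was 0.005 in NSPs and 0.464 at 72 h, since the annotated exons of Osmr add up to 12113 bases and its longest transcript has 5491. The same step from NSPs to 72 h, over which Lifr went from above Il6st to below it, was present with both lengths (2.43 and 0.0771 on the longest transcript).

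**Figure D1:**
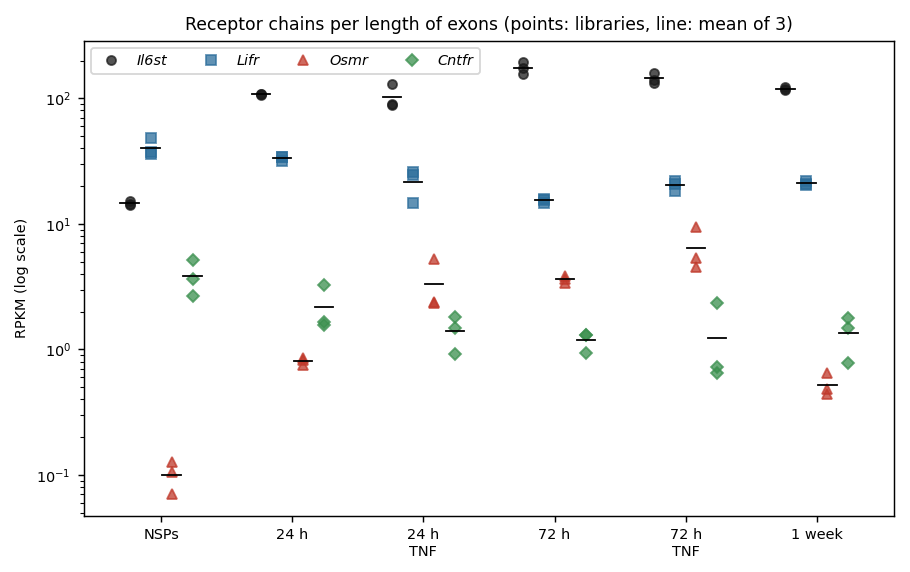
Level of the 4 receptor chains per length of exons (RPKM, log axis) in the 6 conditions, with a point for each library and a line at the mean of 3. Il6st lies above Lifr in every differentiated library and below it in NSPs, and Osmr averages 0.101 RPKM for NSPs, 3.61 RPKM after 72 h and 6.44 RPKM after 72 h with TNF.

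Cntfr, which codes for the chain that binds CNTF and CLCF1 and has no signalling part of its own, was low throughout and lower at 1 week than in NSPs. Cntfr (chromosome 4, 41657498 to 41697089, minus strand) stood at 7.43, 14.4 and 10.1 CPM in NSPs. It was at 4.61, 4.36 and 9.04 CPM after 24 h, 3.63, 3.62 and 2.59 CPM after 72 h and 4.15, 4.99 and 2.18 CPM after 1 week. Its NSP libraries overlapped those of 24 h and lay above all libraries of 1 week. It was 2.79-fold lower at 1 week than in NSPs (log2 fold change -1.48 ± 0.43, adjusted p = 0.0063), and the steps between neighbouring times did not pass (adjusted p from 0.103 to 0.858). With no filter on low counts, 24 h against NSPs (-0.89, adjusted p = 0.00302) and 72 h against 24 h (-0.85, adjusted p = 0.0169) did pass, as did the first without 24 h replicate 3 (-1.25, adjusted p = 0.0407).

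Clcf1, the only ligand among the 9 genes, was absent from the reads of NSPs and barely above detection afterwards. Clcf1 (chromosome 19, 4214238 to 4223490, plus strand) had 0 counts in each of the 3 NSP libraries and 4, 6 and 4 counts at 24 h, 4, 6 and 7 at 72 h and 7, 11 and 12 at 1 week. The 3 NSP libraries together were given a floor of 3 counts, which is 0.0582 CPM. Against it, the mean level of Clcf1, taken without its counting error, was 5.52-fold higher at 24 h and 10.1-fold higher at 1 week. With 0 counts in NSPs it could differ from them only upward to enter the test, so its calls against NSPs are not read as results. The later steps did not pass (adjusted p = 0.885 and 0.522). Part of its exons is shared with AC109138.7 on the same strand, so its few reads are uncertain in origin.

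The kinases moved little. Jak1 (chromosome 4, 101152367 to 101265282, minus strand) and Jak2 (chromosome 19, 29251828 to 29313080, plus strand) code for JAK kinases bound to the inner ends of the receptor chains. Jak1 stood at 152, 123 and 138 CPM in NSPs and at 201, 178 and 183 CPM at 24 h, with no overlap, a rise of 0.44 ± 0.10 on the log2 scale (adjusted p = 0.0017). From 24 h onward its libraries lay between 171 and 201 CPM in all 5 differentiated conditions, and no later step passed (adjusted p from 0.834 to 0.934). The gene shares exon bases with Raver2 on the other strand, and the strand setting of the counting is not given in the sources used here, so a part of its count could come from there. Jak2 ranged from 107 to 173 CPM over the 18 libraries and passed the test in no comparison (adjusted p from 0.103 to 0.855).

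Stat3 held its level for 72 h and was lower at 1 week. Stat3 (chromosome 11, 100885098 to 100939540, minus strand) codes for the transcription factor at the end of the pathway. Its libraries held 203, 240 and 248 CPM as NSPs, 260, 269 and 274 CPM after 24 h and 238, 273 and 289 CPM after 72 h. Neither step passed (log2 fold change 0.21 ± 0.12, adjusted p = 0.148, and -0.01 ± 0.12, adjusted p = 0.981). The first step did pass with scaling by total counts (0.29, adjusted p = 0.0471) and with at least 10 counts required in every library (0.32, adjusted p = 0.0224). At 1 week the libraries stood at 129, 118 and 134 CPM, below all 15 others. The fall was 2.1-fold from 72 h (log2 fold change -1.07 ± 0.12, adjusted p = 3.05e-05) and 1.82-fold from NSPs (log2 fold change -0.86 ± 0.12, adjusted p = 8.8e-06), and it was called in each of the 6 fits that left out one library. Stat3 shares exon bases with Stat5a on the other strand, which had at most 5.62 CPM in any library.

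Socs3, the inhibitor, rose in the same steps as Osmr and Il6st. Socs3 (chromosome 11, 117966079 to 117970047, minus strand) stood at 2.35, 3.3 and 2.79 CPM in NSPs, then 7.48, 7.55 and 7.41 CPM after 24 h and 15.8, 18.4 and 18.6 CPM after 72 h, with every library above those of the time before. It rose 2.65-fold in the first step (log2 fold change 1.41 ± 0.22, adjusted p = 3.85e-05) and 2.35-fold in the next (log2 fold change 1.23 ± 0.20, adjusted p = 0.000182). At 1 week it stood at 10.6, 7.18 and 11 CPM, 1.84-fold below 72 h (log2 fold change -0.88 ± 0.20, adjusted p = 0.00967) and 3.39-fold above NSPs (log2 fold change 1.76 ± 0.22, adjusted p = 1.38e-06). The fall after 72 h was not called without 1 week replicate 2 (adjusted p = 0.0653) or without 72 h replicate 2 (adjusted p = 0.0503). Per length of exons the ratio of Socs3 to Stat3 was 0.0401 in NSPs, 0.0922 after 24 h, 0.218 after 72 h and 0.247 after 1 week, the last with both genes below their 72 h level.

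**Figure D2:**
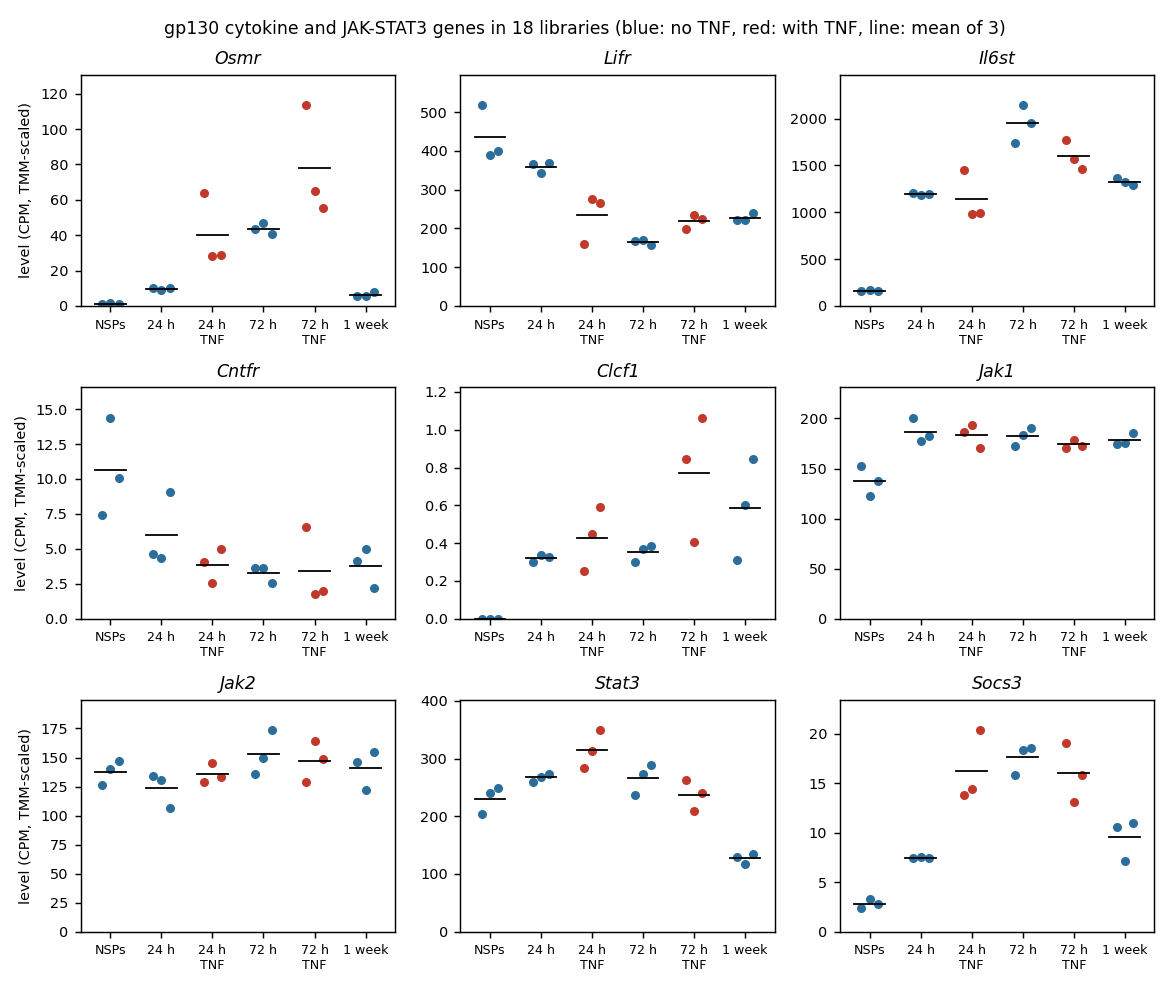
Level of each of the 9 genes (CPM with TMM factors, axes from 0) in the 18 libraries, grouped by condition, with untreated cells in blue, TNF in red and a line at the mean of 3. Osmr and Socs3 climb to 72 h and drop by 1 week, Il6st stays high from 24 h onward, Lifr declines, and Stat3 is lowest at 1 week.

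From NSPs to 24 h, 5 of the 9 genes were called higher and 0 lower, where 52.7% of all tested genes were called, 27.2% higher and 25.5% lower. One of the 5 was Clcf1, which could only be called higher, and the others were Osmr, Il6st, Jak1 and Socs3. The median log2 fold change of the 9 was 0.44, also with Clcf1 taken against its floor, and 0.06 over all tested genes. From 24 h to 72 h, 3 were called higher and 1 lower, against 24.8% of all genes called, 12.2% higher and 12.6% lower. From 72 h to 1 week, 0 were called higher and 4 lower (Il6st, Osmr, Stat3 and Socs3), against 6.63% of all genes, 2.68% higher and 3.96% lower, and the median of the 9 was -0.12, against 0.00 over all. Between NSPs and 1 week, 5 were called higher, again with Clcf1 among them, and 3 lower, all but Jak2, against 58.6% of all genes, 29.6% higher and 29.1% lower. These comparisons share conditions and are not independent of each other.

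TNF raised Osmr at 24 h. Its libraries stood at 63.9, 28.2 and 28.7 CPM with TNF and at 10.1, 9.11 and 10.3 CPM without, so replicate 1 was more than the other 2 treated libraries together and all 3 lay above the untreated ones. The increase was 4.11-fold (log2 fold change 2.04 ± 0.30, adjusted p = 0.000453) and remained called without replicate 1 of the treated cells (log2 fold change 1.52, adjusted p = 0.00127). At 72 h the libraries stood at 114, 64.8 and 55.4 CPM with TNF, again with replicate 1 highest and no overlap with the untreated ones. Here the difference did not pass (log2 fold change 0.83 ± 0.28, adjusted p = 0.0656), and it was 0.46 (adjusted p = 0.357) without treated replicate 1. DESeq2 called it (adjusted p = 0.0462), as did edgeR without treated replicate 3 (1.03, adjusted p = 0.036).

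Lifr was lower with TNF at 24 h, in a call that rested on a narrow margin. Its libraries stood at 159, 277 and 265 CPM with TNF, all below the untreated 344 to 368 CPM, a fall of 1.54-fold (log2 fold change -0.62 ± 0.16, adjusted p = 0.0395). Without treated replicate 1, the lowest, the log2 fold change was -0.43 and not called (adjusted p = 0.103), nor was it called without any single untreated library (adjusted p from 0.0746 to 0.128). At 72 h the libraries with TNF stood at 198, 235 and 224 CPM, above all untreated ones, and the difference did not pass (log2 fold change 0.40 ± 0.16, adjusted p = 0.134). The change of the TNF effect between the times was 1.02 ± 0.23 on the log2 scale and did not pass in edgeR (adjusted p = 0.057). DESeq2 called it (adjusted p = 0.00547), as did edgeR without 24 h TNF replicate 1 (0.83, adjusted p = 0.0417) or replicate 2 (adjusted p = 0.0322) and without 72 h TNF replicate 1 (adjusted p = 0.0362). The summed markers of the oligodendrocyte lineage ranged from 43.4 to 56 CPM at 24 h with TNF, below the untreated 61.1 to 63.1 CPM, and their part in the lower Lifr was not tested.

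Socs3 rose with TNF at 24 h, from 7.41 to 7.55 CPM in untreated libraries to 13.8, 14.5 and 20.3 CPM. The change was 2.17-fold (log2 fold change 1.12 ± 0.20, adjusted p = 0.00316) and was called in each of the 6 fits that left out one library. These values overlapped those of untreated cells at 72 h. At 72 h the libraries with TNF stood at 19, 13.1 and 15.8 CPM and overlapped the untreated ones (log2 fold change -0.14 ± 0.19, adjusted p = 0.695). The effect of TNF at 72 h was 1.25 ± 0.28 below that at 24 h on the log2 scale, which missed the threshold in edgeR (adjusted p = 0.0521) and passed in DESeq2 (adjusted p = 0.00362). In edgeR it also passed without 72 h replicate 1 (adjusted p = 0.0479) and without 72 h TNF replicate 1 (adjusted p = 0.0289).

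The other 6 genes did not pass the test for TNF at 24 h or 72 h. Il6st stood at 1447, 982 and 992 CPM at 24 h with TNF, on both sides of the untreated 1186 to 1207 CPM (log2 fold change -0.07 ± 0.14, adjusted p = 0.897). Without treated replicate 1, the other 2 lay below every untreated library and the log2 fold change was -0.30 (adjusted p = 0.28). At 72 h with TNF it stood at 1775, 1564 and 1467 CPM (log2 fold change -0.28 ± 0.14, adjusted p = 0.217). Stat3 stood at 283, 313 and 349 CPM at 24 h with TNF, above all 3 untreated libraries (log2 fold change 0.24 ± 0.12, adjusted p = 0.42), and at 264, 209 and 240 CPM at 72 h with TNF (log2 fold change -0.17 ± 0.12, adjusted p = 0.417). Clcf1 had 15, 7 and 17 counts at 72 h with TNF against 4, 6 and 7 without (log2 fold change 1.10 ± 0.46, adjusted p = 0.149). Cntfr differed by -0.61 ± 0.44 and 0.08 ± 0.45 at the 2 times, Jak1 by -0.03 ± 0.10 and -0.07 ± 0.10, and Jak2 by 0.13 ± 0.13 and -0.05 ± 0.13 on the log2 scale. The values of Cntfr leaned on single libraries. At 72 h with TNF it stood at 6.54, 1.8 and 2 CPM, and its log2 fold change was -0.78 (adjusted p = 0.337) without treated replicate 1. At 24 h its log2 fold change was -0.21 (adjusted p = 0.959) without untreated replicate 3.

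Among the 9 genes, 2 were called higher with TNF at 24 h and 1 lower, where 3.5% of all tested genes were called, 2.18% higher and 1.32% lower. At 72 h edgeR called 0 of the 9, where 9.56% of all genes were called, 4.35% higher and 5.21% lower. Of the 9, 3 had an unadjusted p under 0.05 at 72 h, and DESeq2 called 1. For the difference of the TNF effect between the times edgeR called 0 of 9, where 0.458% of all genes were called, 0.135% higher and 0.324% lower, while 4 had an unadjusted p under 0.05 and DESeq2 called 2. Untreated Osmr went from a mean of 9.81 to 43.8 CPM and untreated Socs3 from 7.48 to 17.6 CPM between the times.

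**Figure D3:**
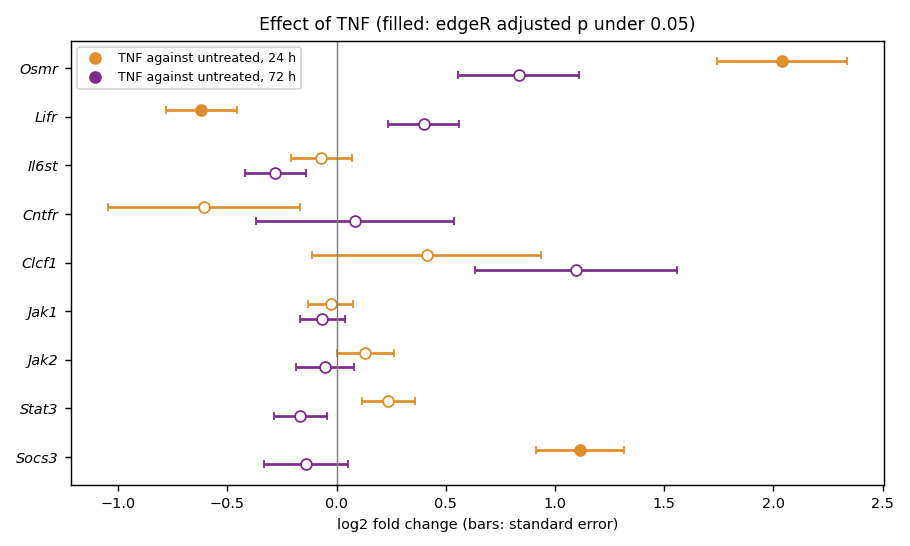
Log2 fold change of each of the 9 genes with TNF against untreated cells at 24 h (orange) and 72 h (purple), with bars for the standard error and filled points for an adjusted p under 0.05. Osmr, Lifr and Socs3 are filled at 24 h, at 2.04, -0.62 and 1.12, and no point is filled at 72 h.

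Between 24 h and 72 h under TNF, 2 of the 9 genes were called higher and 1 lower, where 13.3% of all genes were called, 5.38% higher and 7.93% lower. None of these calls held with only the compared groups in the fit. Osmr rose by 0.95 ± 0.28 on the log2 scale (adjusted p = 0.0288) with overlapping libraries, by 1.49 (adjusted p = 0.000296) without 24 h TNF replicate 1 and by 0.60 (adjusted p = 0.158, not called) without 72 h TNF replicate 1. It was also lost without 24 h TNF replicate 2 (0.78, adjusted p = 0.145) or replicate 3 (0.76, adjusted p = 0.148). Il6st rose by 0.49 ± 0.14 (adjusted p = 0.0258), and by 0.74 (adjusted p = 0.000257) without 24 h TNF replicate 1. Without 24 h TNF replicate 2 or 3 or 72 h TNF replicate 1 or 2 its adjusted p lay between 0.0541 and 0.138. Stat3 fell by 0.41 on the log2 scale (-0.41 ± 0.12, adjusted p = 0.0321), and was not called in 4 of the 6 fits that left out one library, those without 24 h TNF replicate 2 or 3 and without 72 h TNF replicate 2 or 3 (adjusted p from 0.0842 to 0.16). Lifr (-0.09 ± 0.16) and Socs3 (-0.02 ± 0.19) did not pass, where both had been called between the same times without TNF. The difference between these steps with and without TNF is the same contrast as the change of the TNF effect between the times (adjusted p = 0.057 for Lifr and 0.0521 for Socs3, neither called).

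Listed by level, the order of the conditions shows which neighbours stood apart. Osmr was highest at 72 h with TNF (mean 78 ± 31.3 CPM, SD, n = 3), then at 72 h (43.8 ± 2.84 CPM) and 24 h with TNF (40.3 ± 20.5 CPM), whose libraries overlapped, and then at 24 h, 1 week and NSPs, each apart from the next. Il6st was highest at 72 h and 72 h with TNF, which overlapped, followed by 1 week, then 24 h and 24 h with TNF, which overlapped, and NSPs. Lifr was highest in NSPs, followed by 24 h, each apart from the next, while 24 h with TNF, 1 week and 72 h with TNF overlapped, and 72 h was lowest. Socs3 overlapped among 72 h, 24 h with TNF and 72 h with TNF, all 3 above 1 week, 24 h and NSPs. Stat3 was highest at 24 h with TNF and lowest at 1 week, with 24 h, 72 h, 72 h with TNF and NSPs overlapping in turn between them. Each neighbouring pair overlapped for Cntfr and Jak2.

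Of 35 listed ligands, receptors, kinases, STAT factors and inhibitors beside the 9 genes, 28 were tested. Il6, Osm, Ctf2, Il11, Il27, Il27ra and Stat4 had too few reads, and Osm, which codes for oncostatin M, the ligand of OSMR, had at most 2 counts in any library. Of the 28, 6 were called higher and 5 lower from NSPs to 24 h, 6 and 1 from 24 h to 72 h, 0 and 2 from 72 h to 1 week, 10 and 6 from NSPs to 1 week, 2 and 0 with TNF at 24 h, 0 and 2 with TNF at 72 h, and 2 and 1 from 24 h to 72 h under TNF. Over the 4 comparisons without TNF these were 39.3%, 25%, 7.14% and 57.1% of the 28 genes, against 52.7%, 24.8%, 6.63% and 58.6% of all tested genes. With TNF they were 7.14% at 24 h, 7.14% at 72 h and 10.7% between the times, against 3.5%, 9.56% and 13.3% of all tested genes. Of the 3 genes called between the times, Il11ra1 (adjusted p = 0.157) and Stat5b (adjusted p = 0.113) were lost without 24 h TNF replicate 2. The shares of the 28 were near or below those of all genes except with TNF at 24 h, where 2 genes make up the share. From 72 h to 1 week, the call of Il6ra was lost in each of the 6 fits that left out one library (adjusted p from 0.0813 to 0.153). That of Jak3 was lost without 72 h replicate 2 (adjusted p = 0.0515). From 24 h to 72 h, Cish, Jak3 and Stat5b were lost without 24 h replicate 3 (adjusted p from 0.0525 to 0.0693).

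Among the receptors, Il6ra, which codes for the chain that binds interleukin-6, ranged from 0.378 to 1.39 CPM at 24 h, from 4.03 to 16.7 CPM at 24 h with TNF and from 5.28 to 6.28 CPM at 72 h. It rose by 3.19 ± 0.58 on the log2 scale with TNF at 24 h (adjusted p = 0.00307; 2.15, adjusted p = 0.016, without 24 h TNF replicate 1), as it also did by 2.67 ± 0.58 from 24 h to 72 h (adjusted p = 0.00214). Il11ra1, which binds interleukin-11, rose from 24 h to 72 h (1.30 ± 0.23, adjusted p = 0.000372). Among the ligands, Lif, chosen after its values were seen since its mean was under 1 CPM, ranged from 0.302 to 0.503 CPM at 24 h and from 1.19 to 3.21 CPM with TNF (log2 fold change 2.10 ± 0.50, adjusted p = 0.0216). Its call was lost without 24 h TNF replicate 1 (1.45, adjusted p = 0.162) and without any one of the 3 untreated libraries (adjusted p from 0.0778 to 0.115).

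Of the other kinases, Jak3 ranged from 0.254 to 0.824 CPM in NSPs, from 1.49 to 3.87 CPM after 72 h and from 0.634 to 0.707 CPM after 1 week. It fell over the last step (-1.96 ± 0.40, adjusted p = 0.00513), a call lost without 72 h replicate 2 (-1.57, adjusted p = 0.0515). Among the STAT factors, Stat5a averaged 0.998 CPM among the NSPs and rose to 4.71 CPM by 24 h (log2 fold change 2.22 ± 0.25, adjusted p = 9.07e-07) and was at 5.08 CPM at 1 week. Among the inhibitors, Cish and Socs2, both known targets of STAT5, rose from NSPs to 24 h (log2 fold changes 2.56 ± 0.36 and 1.73 ± 0.24, adjusted p = 1.16e-05 and 1.18e-05). Socs2 fell with TNF at 72 h (-0.86 ± 0.23, adjusted p = 0.0255), from 15.7 to 20.9 CPM in untreated libraries to between 10 and 10.3 CPM with TNF, and Socs7 fell with it (-0.47 ± 0.13, adjusted p = 0.0255). The call of Socs2 was lost without 72 h replicate 2 (-0.76, adjusted p = 0.12) and without each of the 3 treated libraries (adjusted p from 0.0568 to 0.0656). That of Socs7 was lost without 72 h replicate 2 or 3 and without 72 h TNF replicate 1 or 2 (adjusted p from 0.051 to 0.143).

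**Figure D4:**
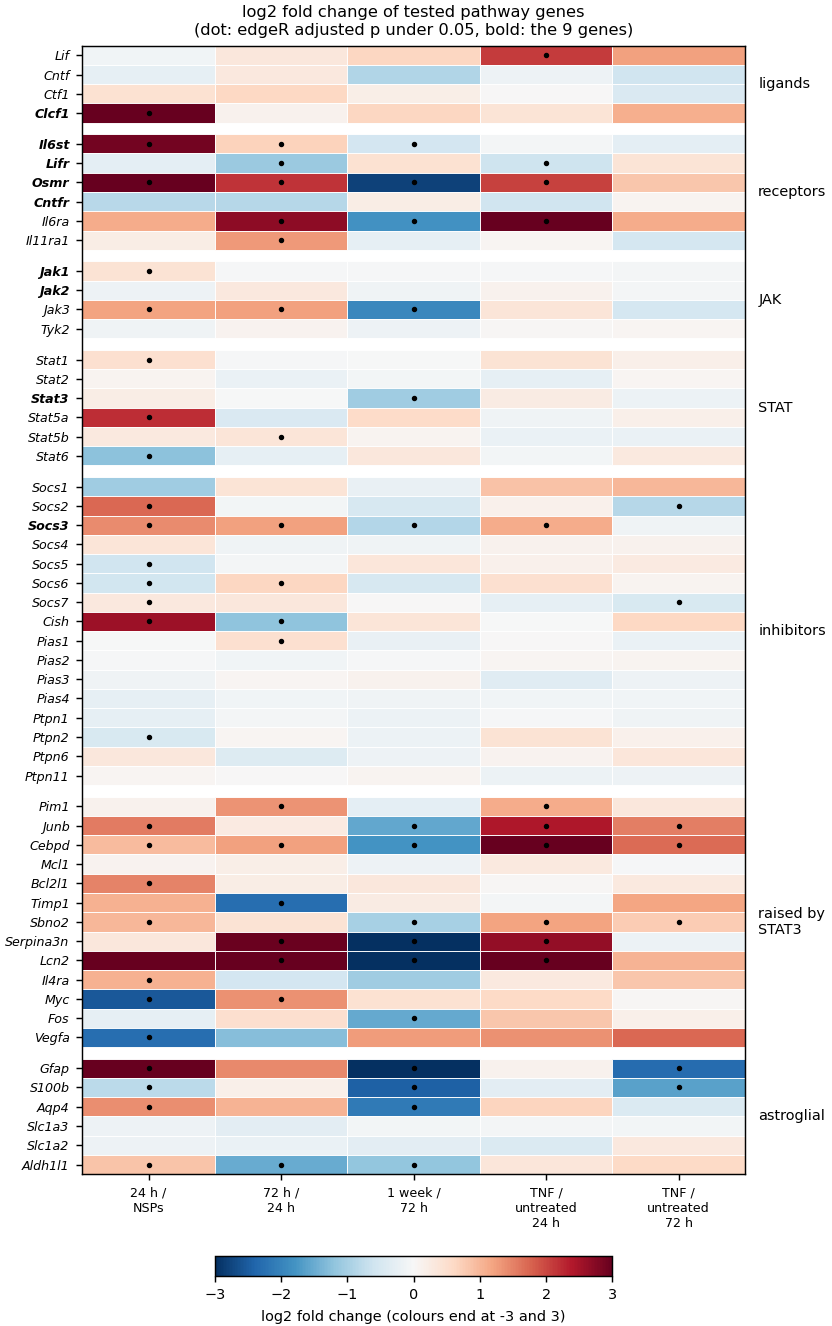
Log2 fold change (colour, from -3 to 3) of tested genes of the lists in 5 comparisons, with a dot for an adjusted p under 0.05 and the 9 genes in bold. The dots in the column of TNF at 24 h lie on Lif, Lifr, Osmr, Il6ra, Socs3 and 6 genes known to be raised by STAT3, and the dark square of Clcf1 against NSPs is a fitted value with 0 counts in NSPs and no measure of size.

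A list of genes known to be raised by STAT3, many of which are also targets of NF-kB, was written with earlier results of these data known. The paper reports some of its genes, Lcn2 and Sbno2 among them, as higher with TNF in these data. The counts of this list are therefore no independent test of it. Of its 15 members, 13 were tested. With TNF at 24 h, 6 were called higher and 0 lower, where 3.5% of all tested genes were called and 2.18% called higher, with a median log2 fold change of 1.11 against -0.01 over all tested genes. Cebpd, a transcription factor of the acute-phase response, ranged from 6.58 to 9.94 CPM without TNF and from 67 to 83.5 CPM with it (log2 fold change 3.07 ± 0.20, adjusted p = 3.5e-08). Serpina3n, a secreted protease inhibitor of reactive astrocytes, rose by 2.62 ± 0.57 (adjusted p = 0.0113; not called without 24 h TNF replicate 1 or without any one untreated library, adjusted p from 0.0534 to 0.0704) and Junb, an AP-1 subunit, by 2.42 ± 0.33 (adjusted p = 0.00023). Lcn2, a secreted iron-carrier binding protein, ranged from 0 to 0.326 CPM without TNF and from 6.26 to 14.8 CPM with it (adjusted p = 0.000166). With TNF at 72 h, 3 were called higher and 0 lower (Cebpd, Junb and Sbno2), where 9.56% of all genes were called, of which Sbno2 was called in 1 of the 6 fits that left out one library. Without TNF, 5 were called higher and 2 lower from NSPs to 24 h, 5 and 1 from 24 h to 72 h, 0 and 6 from 72 h to 1 week, and 2 and 3 between NSPs and 1 week, where 52.7%, 24.8%, 6.63% and 58.6% of all genes were called. The fall from 72 h to 1 week took in Cebpd (-1.79 ± 0.20, adjusted p = 2.05e-05), Serpina3n (-4.08 ± 0.61, adjusted p = 0.000426, and -4.86 without 1 week replicate 3) and Junb (-1.55 ± 0.35, adjusted p = 0.00914, and 0.075 without 72 h replicate 2), over the same interval in which Osmr, Stat3 and Socs3 fell. Sbno2 and Fos were also among the 6, and without 72 h replicate 2 their calls were lost too (adjusted p = 0.0775 and 0.0928).

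Of 6 astroglial genes known to respond to gp130 cytokines, 3 were called higher and 1 lower from NSPs to 24 h, 0 and 1 from 24 h to 72 h, 0 and 4 from 72 h to 1 week, and 0 and 4 between NSPs and 1 week, where 52.7%, 24.8%, 6.63% and 58.6% of all genes were called. The 4 lower at 1 week than in NSPs were S100b, Aldh1l1 and the glutamate transporters Slc1a2 and Slc1a3, the call of Slc1a2 being lost without 1 week replicate 1 (adjusted p = 0.0583), and the median log2 fold change of the 6 was -0.61, against 0.06 over all tested genes. With TNF at 24 h, edgeR and DESeq2 each called 0 of the 6, and 0 had an unadjusted p under 0.05, where 3.5% of all genes were called. Gfap, the intermediate filament of astrocytes, rose by 5.05 ± 0.64 on the log2 scale from NSPs to 24 h (adjusted p = 3.89e-06) and fell by 1 week (-5.26 ± 0.65, adjusted p = 5.59e-05). With TNF at 24 h Gfap ranged from 463 to 1871 CPM, on both sides of the untreated 864 to 949 CPM. At 72 h Gfap (-2.31 ± 0.56, adjusted p = 0.0128) and the calcium-binding protein S100b (-1.64 ± 0.19, adjusted p = 1.66e-05) fell with TNF, 2 of the 6 genes where 9.56% of all genes were called. The log2 fold change of Gfap was -3.44 (adjusted p = 0.00047) without 72 h TNF replicate 1. Its call was lost without 72 h replicate 2 and without 72 h TNF replicate 2 or 3 (adjusted p from 0.0571 to 0.0595). The summed astrocyte markers, Gfap and S100b among them, ranged from 3485 to 4888 CPM at 72 h with TNF, below the 5696 to 8145 CPM of untreated libraries. The summed markers of the oligodendrocyte lineage lay higher, at 24.3 to 80.4 CPM with TNF against 14.3 to 18.5 CPM without, where 1 of 4 tested genes was called, Cspg4 (2.02 ± 0.41, adjusted p = 0.00326; 1.08, adjusted p = 0.0254, without 72 h TNF replicate 1). The sum for endothelium lay lower, at 0.958 to 2.57 CPM against 5.3 to 6.75 CPM, and the difference lay in Kdr. Kdr averaged 1.2 CPM with TNF and 5.76 CPM without, and was called (-2.27 ± 0.46, adjusted p = 0.00318). Pecam1, the other tested gene of endothelium, went the other way, at 0.652 CPM against 0.324 CPM, and was not called. The summed markers of neurons overlapped, at 7.89 to 17.2 CPM against 10.4 to 11.5 CPM, with Rbfox3 called lower (-1.86 ± 0.45, adjusted p = 0.0124, and 0.0713 without 72 h TNF replicate 1). The summed markers of neural stem cells also overlapped, at 1003 to 1582 CPM against 1392 to 1841 CPM. Of those 5 genes edgeR called 0, 3 had an unadjusted p under 0.05 and DESeq2 called 2. Osmr, Il6st, Stat3 and Socs3 were not called with TNF at 72 h, and the part of these markers in the results at 72 h was not tested.

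Across the 18 libraries the log2 levels of Osmr and Socs3 went together most closely among the pairs of the 9 genes (Pearson's r = 0.92), followed by Il6st and Socs3 (0.88), whereas Lifr ran against Socs3 (-0.83). Stat3 was unrelated to Il6st (0.00). These are descriptions over libraries that share 6 conditions, with no test. Of 12626 protein-coding genes with a mean of at least 1 CPM, those nearest in pattern to Osmr were Casp12 (0.97), a caspase of the endoplasmic reticulum, and Met (0.96), the receptor for hepatocyte growth factor. Met averaged 18.5 CPM at 24 h, 118 CPM at 24 h with TNF, 52.9 CPM at 72 h and 184 CPM at 72 h with TNF. The nearest to Il6st were Arhgef10 and Synm (both 0.99), the latter an intermediate filament gene of astrocytes. Lifr was nearest to Masp1 (0.94) and to Olig1 (0.92), a transcription factor of the oligodendrocyte lineage, which averaged 688 CPM among the NSPs and 49.9 CPM after 72 h. Stat3 was nearest to Cited1 (0.93) and Id3 (0.92), Socs3 to Vwa5a and Sqstm1 (both 0.94), Cntfr to Pnkd and Rasip1, Clcf1 to Agpat4 and Fam129b, Jak1 to Mfap3l and Cdk5rap2, and Jak2 to Trim23 and Slu7, all at 0.90 or more. With Spearman's rho in place of Pearson's r, 2 of the 18 named genes were named again.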

How the data were processed

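Stranded libraries were made from total RNA of 18 cultures after removal of ribosomal RNA. Per the submitters' processing notes, the authors used FastQC, Trim Galore, STAR, Samtools and featureCounts on mm10, and the deposited table holds these raw counts without normalization. Tool versions and the strand setting are not given in the sources used here. All 18 columns were used. The untreated 72 h library that its label calls replicate 3 carries the number 4 in the table and was matched through its sequencing index. RNA quality is given as a range and not per library, and its effect was not tested.

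Of 54838 gene identifiers, 54809 were in GENCODE M21 (GRCm38, the assembly of mm10), the source of names, positions and exon lengths. RPKM used the union of a gene's exons. Fits used edgeR 4.0.16 (R 4.3.3) with TMM factors, its filter by condition, one mean per condition over all 18 libraries and the quasi-likelihood test. Standard errors were taken from the fold change and the test's F. DESeq2, the tool of the authors, was an alternative, here in version 1.42.0. Both were tested on simulated counts. Summaries used Python 3.11.15, pandas 2.3.3 and matplotlib 3.10.9. The libraries carry no molecular identifiers, so depth and floors describe counting error only. No library was a duplicate of another (chi-square divided by its degrees of freedom was 4.08 to 62.7 within conditions). The methods describe cells taken from individual brains and repeated experiments, but the labels do not tie a library to an embryo or experiment, and p-values measure the spread between these cultures.

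The 9 genes and all gene lists were chosen with earlier results of these data known. The rule for other named genes took, per list and comparison, at most 4 called genes with the largest change and a mean of at least 1 CPM, and for likeness the 2 genes with the highest Pearson's r per gene. The comparison of 72 h with 24 h under TNF was the only one in which every pair of same-numbered replicates deviated together (correlations from 0.255 to 0.291), so the numbers pair those samples by the rule used, and the block changed no call of the 9 genes there. Alternatives were DESeq2, RLE factors, scaling by total counts, no filter, a minimum of 10 counts in each library, the compared groups alone, a block for replicate number, the longest transcript for RPKM, Spearman's rho and leaving out each library. Protein motifs of the receptors were not analysed here. One listed gene is included in the counts but not reported by name here.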

Additional observations from a re-analysis of the deposited data

Results flagged for a closer look

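None of the 9 genes was called for a difference of the TNF effect between 72 h and 24 h in edgeR (4 had an unadjusted p under 0.05, and DESeq2 called 2), where 0.458% of all tested genes were called. Of 13 tested genes known to be raised by STAT3, 2 were called (Cebpd and Lcn2), and of 6 astroglial genes known to respond to gp130 cytokines 1 was (S100b). Cebpd rose with TNF at both times, and its effect at 72 h was 1.38 lower on the log2 scale (-1.38 ± 0.26, adjusted p = 0.0232). Untreated Cebpd ranged from 6.58 to 9.94 CPM at 24 h and from 18.5 to 21.2 CPM at 72 h, and treated Cebpd from 67 to 83.5 CPM and from 49.1 to 83.5 CPM.

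Lcn2 differed by -5.52 ± 1.05 (adjusted p = 0.0275). It was at 6.26 to 14.8 CPM at 24 h with TNF and 1.74 to 7.66 CPM at 72 h with TNF, against untreated levels of at most 0.326 CPM at 24 h and of 1.71 to 1.97 CPM at 72 h, and the size of its fitted value depends on the few untreated reads at 24 h.

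S100b differed by -1.32 ± 0.26 (adjusted p = 0.0309), from 47.2 to 63.3 CPM with TNF and 60.5 to 71.2 CPM without at 24 h, to 20.3 to 29.2 CPM with TNF and 53.9 to 90.1 CPM without at 72 h. Each of these 3 calls was lost without any of several single libraries, among them 24 h replicates 1 and 2 and 72 h replicates 2 and 3 for all 3 genes (highest adjusted p = 0.0859 for Cebpd, 0.108 for Lcn2 and 0.12 for S100b). The cause of these differences was not tested.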

How the results depend on the processing

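Of 1046 values of the 9 genes under the alternatives, 991 kept their direction and their side of the threshold, 31 calls were lost, 24 values were newly called, and 0 called values reversed. Of the values called in neither fit, 45 changed sign. With TNF at 72 h, 1 of the 9 genes was called (Osmr) with DESeq2, with total counts, with no filter and with only the groups compared, against 0, and 0 to 1 with a library left out. For the difference of the TNF effect, 2 were called with DESeq2, 1 with total counts, 3 with no filter and 1 when every library needed 10 counts, against 0, and 0 to 2 with a library left out. From 24 h to 72 h under TNF, 0 were called with only the groups compared, against 3, and 0 to 3 with a library left out. From 72 h to 1 week, 2 to 4 were called with a library left out. The cause of these shifts was not tested. With scaling by total counts the median log2 fold change of all genes went from 0.06 to 0.14 for 24 h against NSPs and from 0.06 to 0.17 for 1 week against NSPs. On the longest transcript 4 of 9 genes kept their rank by level per length at 24 h and 72 h.

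With the replicate block, the fall of Lifr with TNF at 24 h was -0.63 and no longer called (adjusted p = 0.0536), and the block changed no other call of the 9 genes. With untreated 72 h replicate 3 left unpaired, the fall of Il6st from 72 h to 1 week (-0.52, adjusted p = 0.108) and that of Lifr with TNF at 24 h (adjusted p = 0.0658) were not called. Beyond the pairs under TNF, no tested comparison had all its same-numbered pairs deviate together. NSPs and untreated 72 h, which were not tested against each other, had correlations of 0.219, 0.15 and 0.0525. Depth limits Clcf1 most, with at most 17 counts in a library.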
